A study of Homo sapiens with 4 samples.

Results

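The 9 genes described here encode cell surface proteins of human embryonic stem cells. PODXL, THY1, CD9, EPCAM, CD24 and PROM1 are used as surface markers of stem cells, and CD46, CD55 and CD59 shield a cell from complement. The genes were chosen by name, and all probes annotated with their symbols were taken. The choice was made with results of these arrays known, because CD55 had been seen higher on the Y27632 array. That value is therefore given as a description and supports nothing. Of the 9 genes, 8 had a probe, 15 probes in all, among 20041 genes named by a probe. CD46 is not analysed here, since no probe carried its symbol in the annotation used.

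RNA came from human embryonic stem cells under 4 conditions, with 1 Illumina Expression BeadChip array for each. The condition Nam was E8 medium, a defined medium that keeps the cells pluripotent, supplemented with 10 mM nicotinamide, the amide form of niacin, for 24 h. The condition Y27632, labelled ROCKi, was E8 supplemented with 10 µM of Y27632, a small molecule, also for 24 h. In the condition Mesoderm, BMP4, a growth factor that drives these cells to differentiate, was added to E8 for 6 days as a differentiation control. The condition E8 was E8 medium alone, labelled 24 h. All cultures thus shared E8 medium, and the labels also give Matrigel-coated plates for all of them. The labels name the established lines H9 and H1 in different fields, so the line is not named here. The BMP4 dose is not given in the sources used here, and because no array holds a culture grown that long in plain E8, the effects of BMP4 and of time cannot be told apart.

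With 1 array per condition no test was possible, and no p-value for a difference is given. A gene was called when its normalized log2 intensity differed by at least 1 (2-fold) between 2 arrays and at least 1 of them detected its probe, with a detection p of 0.01 or less. Each gene was represented by its brightest probe. The only measure of error is technical. Where a gene has several probes, the SD of their log2 differences was taken and pooled over all such genes. This between-probe SD was 0.30 on Nam relative to E8, 0.25 on Y27632 relative to E8, 0.43 on Mesoderm relative to E8, and 0.30 between Nam and Y27632. It does not cover variation between cultures. In bulk RNA, fewer cells of a type and less RNA per cell cannot be told apart.

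The arrays detected between 16509 and 18051 of 47296 probes, with mean signals between 528.5 and 620.5. The Y27632 array had the fewest detected probes and the highest detection limit, a normalized log2 intensity of 5.82 against 5.54 to 5.63 on the others. All 8 pluripotency markers were detected on the Nam, Y27632 and E8 arrays. On the Mesoderm array 7 of the 8 were lower by at least 2-fold relative to E8, where 11.4% of 11649 genes were. SOX2 was at least 100.2-fold lower, UTF1 at least 21.7-fold lower, NANOG had a log2 difference of -4.50 and DNMT3B one of -2.36.

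Stem cell surface proteins serve as handles for antibodies that sort or identify pluripotent cells, and several change as cells leave pluripotency. Podocalyxin, the product of PODXL, is a sialomucin that carries glycan epitopes recognised by antibodies to human pluripotent stem cells. Complement is a cascade of plasma proteins that tags cells and can perforate them, and most human cells carry membrane regulators that stop it. CD55 speeds the decay of the convertase enzymes, CD46 is a cofactor for cleavage of deposited complement fragments, and CD59 blocks assembly of the membrane attack complex. THY1, CD24, CD55 and CD59 are held in the membrane by a glycosylphosphatidylinositol (GPI) anchor, a glycolipid attached after translation.

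RefSeq promoter windows (build GRCh38.p14, 250 bases before an annotated transcript start) were found for 6 of the 9 genes. PODXL, THY1 and EPCAM had no entry. The windows of CD55 and CD59 are printed because, of the 9 genes, these are the 2 complement regulators with a probe. A further reason is that their levels over the 4 arrays differed in order. Capitals mark the motifs found: in CD55 a GC box (GGGCGG, here on the reverse strand as CCGCCC), and in CD59 a CCAAT box (CCAAT, here on the reverse strand as ATTGG). CD55 has 1 window, at chr1:207321428-207321677 on the + strand. The CD59 sequence is the first of 4 windows, at chr11:33736480-33736729 on the - strand.
CD55: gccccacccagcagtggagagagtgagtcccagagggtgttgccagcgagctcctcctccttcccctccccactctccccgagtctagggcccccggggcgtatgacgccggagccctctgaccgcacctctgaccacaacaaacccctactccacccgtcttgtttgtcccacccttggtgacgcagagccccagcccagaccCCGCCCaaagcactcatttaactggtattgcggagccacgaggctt
CD59: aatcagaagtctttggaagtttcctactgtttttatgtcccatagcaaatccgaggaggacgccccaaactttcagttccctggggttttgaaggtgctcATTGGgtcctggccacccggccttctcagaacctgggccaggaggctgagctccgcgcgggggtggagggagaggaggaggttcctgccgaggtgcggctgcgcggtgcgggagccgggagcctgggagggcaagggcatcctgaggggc

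Both windows held 12 CpG dinucleotides. GC content was 64.0% for CD55 and 62.0% for CD59, and the medians over all 34788 windows were 58.0% and 11 CpG. Each motif was searched on both strands. Of all windows, 42.6% held the GC box and 32.0% the CCAAT box, so both matches are common. The TATA box, searched as TATAAA, was in 10.8% of windows, and the AP-1 motif, searched as TGANTCA, in 6.59%. The E-box, searched as CACGTG, was in 6.31%, the CRE, searched as TGACGTCA, in 1.64%, and the octamer, searched as ATGCAAAT, in 1.62%. None of these last 5 motifs was in the printed windows, which says only that these letters are not there. The CD59 windows that are not printed differ from the first. The second held 2 GC boxes and a CCAAT box, the third a CCAAT box and the fourth 2 AP-1 motifs. A match is a description of the sequence, not a binding site.

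Among the 15 probes, 12 were detected on all 4 arrays, 1 on 3 arrays and 2 on none. The 2 undetected ones were a PODXL probe and a CD59 probe. Relative to E8, 0 of the 8 measured genes were called on Nam, where 2.26% of 11390 genes compared were called. On Y27632 only CD55 was called, higher, where the share over 10989 genes was 0.41%. CD55 was chosen on this contrast, so nothing is read from that count. On Mesoderm CD55 was called higher and THY1 lower, so 2 of 8 genes, where 22% of 11649 genes were called. This count is near that share. The 3 comparisons share the E8 array.

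**Figure D1:**
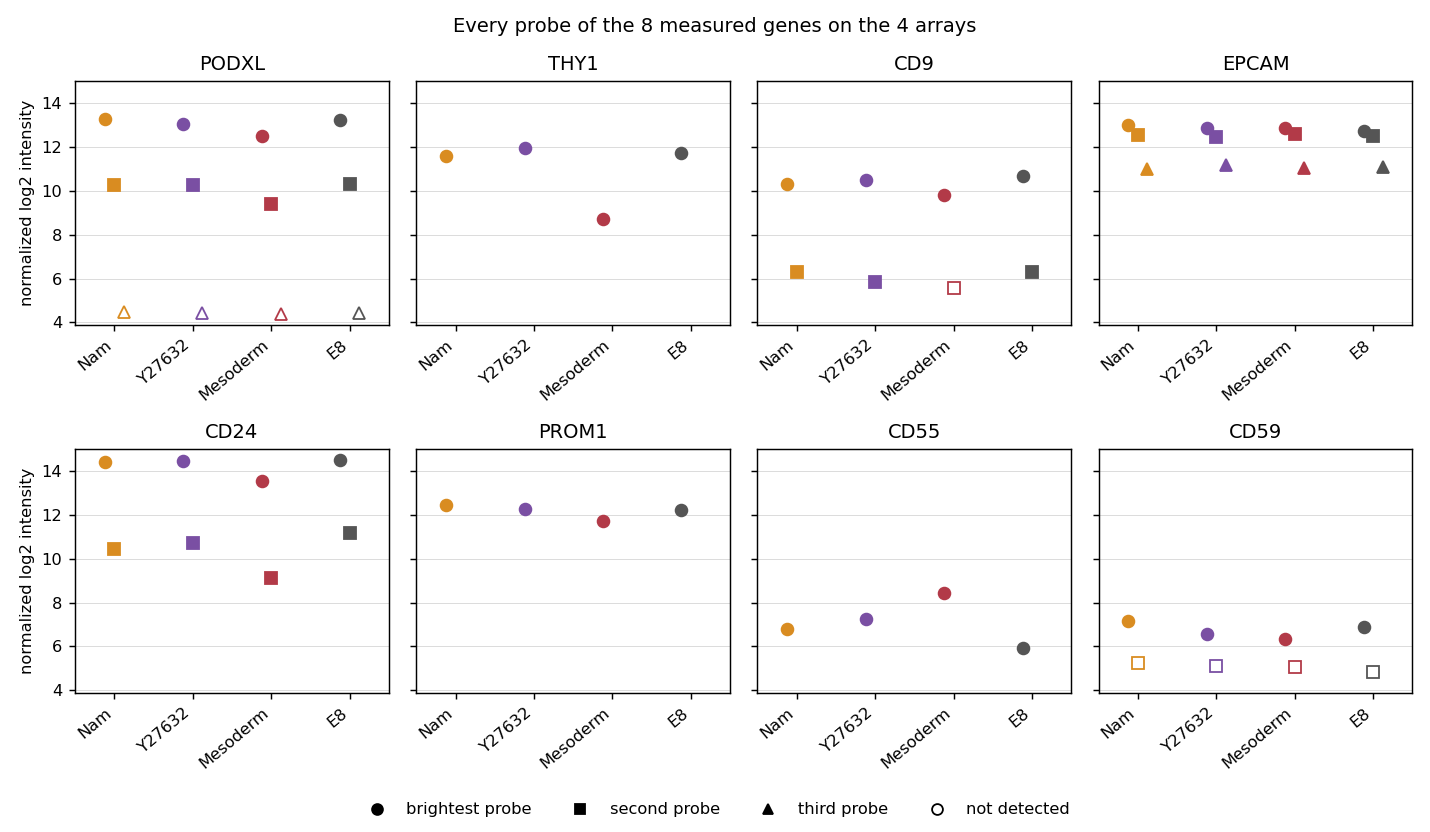
Normalized log2 intensity (vertical axis) of every probe of the 8 measured genes on the Nam, Y27632, Mesoderm and E8 arrays. Symbols tell the probes of a gene apart and open symbols were not detected (detection p above 0.01). THY1 is at 8.73 on Mesoderm and at 11.59 to 11.93 on the other 3 arrays, and CD55 is at 8.42 on Mesoderm and at 5.92 on E8. Heights of different probes are not comparable.

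PODXL differed little between Nam, Y27632 and E8 and was lower on Mesoderm. The brightest PODXL probe had a normalized log2 intensity of 13.28 on Nam, 13.04 on Y27632, 12.50 on Mesoderm and 13.21 on E8. The other detected PODXL probe had 10.26 on Nam, 10.27 on Y27632, 9.39 on Mesoderm and 10.32 on E8. Mesoderm was the lowest array for both probes. Their log2 differences for Mesoderm minus E8 were -0.71 and -0.94, larger than the between-probe SD and short of 2-fold. For Nam minus E8 they were 0.07 and -0.06, and for Y27632 minus E8 -0.17 and -0.05, all within that SD.

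THY1, a GPI-anchored immunoglobulin-fold protein found on pluripotent cells, fibroblasts and neurons, was the gene with the largest difference of the 8. Its only probe had a normalized log2 intensity of 11.59 on Nam, 11.93 on Y27632, 8.73 on Mesoderm and 11.71 on E8. The deposited signals were 2889 on Nam, 3937 on Y27632, 553 on Mesoderm and 3833 on E8. Mesoderm stood apart from the other 3 arrays. THY1 was 7.86-fold lower there relative to E8, a log2 difference of -2.97 that ranked 86 of 11649 genes from the lowest. The log2 difference was -2.86 against Nam and -3.20 against Y27632, neither of which uses the E8 array. For Nam minus E8 it was -0.12 and for Y27632 minus E8 0.22, both within the between-probe SD. Among the 1779 genes whose lower level lay within 0.5 of that of THY1 in Mesoderm minus E8, 7.7% were called lower, THY1 included.

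CD24, a small GPI-anchored mucin-like protein, had 2 probes that gave different sizes. The brightest probe had a normalized log2 intensity of 14.44 on Nam, 14.46 on Y27632, 13.54 on Mesoderm and 14.50 on E8. The second had 10.46 on Nam, 10.70 on Y27632, 9.12 on Mesoderm and 11.16 on E8. Both were lowest on Mesoderm. The log2 difference for Mesoderm minus E8 was -0.97 for the brightest probe, just short of 2-fold, and -2.04 for the second, and their mean was -1.50 with an SD of 0.76. With the mean over probes CD24 would therefore be called. For Nam minus E8 the probes gave -0.07 and -0.70, and for Y27632 minus E8 -0.05 and -0.45. CD24 has near-identical processed copies in the genome, and what part of either probe's signal they give was not tested.

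CD9, a tetraspanin that organises adhesion receptors in the membrane, had its highest normalized log2 intensity on E8. Its brightest probe had 10.32 on Nam, 10.49 on Y27632, 9.83 on Mesoderm and 10.66 on E8. The log2 difference from E8 was -0.34 on Nam, -0.17 on Y27632 and -0.83 on Mesoderm, none of them called. A dim second probe, annotated to another transcript accession, had 6.28 on Nam, 5.85 on Y27632, 5.57 on Mesoderm and 6.31 on E8. It was not detected on Mesoderm, with a detection p of 0.0169.

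EPCAM, an epithelial adhesion molecule, was the steadiest of the 8 genes. Its brightest probe had a normalized log2 intensity of 12.99 on Nam, 12.87 on Y27632, 12.87 on Mesoderm and 12.74 on E8. The second had 12.53 on Nam, 12.47 on Y27632, 12.60 on Mesoderm and 12.50 on E8. The dimmest had 11.01 on Nam, 11.19 on Y27632, 11.06 on Mesoderm and 11.07 on E8. No array was high or low for all 3 probes. The 9 log2 differences from E8 ran between -0.06 and 0.25, each smaller than the between-probe SD of its comparison.

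PROM1, a pentaspan protein of membrane protrusions that marks several kinds of stem cell, had 1 probe. Its normalized log2 intensity was 12.44 on Nam, 12.26 on Y27632, 11.70 on Mesoderm and 12.21 on E8. Mesoderm was the lowest array. The log2 difference from E8 was 0.24 on Nam, 0.05 on Y27632 and -0.51 on Mesoderm, none of them called.

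CD55 lay near the detection limit on E8, and it was higher on each of the other 3 arrays. Its only probe had a deposited signal of 214 on Nam, 262 on Y27632, 469 on Mesoderm and 187 on E8. The detection p was 0 on Nam, Y27632 and Mesoderm and 0.0039 on E8. The normalized log2 intensity was 6.81 on Nam, 7.25 on Y27632, 8.42 on Mesoderm and 5.92 on E8, where the lowest detected probe of the E8 array lay at 5.59. Each step in the order Mesoderm, Y27632, Nam and E8 was larger than the between-probe SD of its pair of arrays. That SD is pooled over genes of all levels, so it does not give the error of a single dim probe. With no background correction, the log2 difference for Nam minus Y27632 was -0.23, smaller than the SD of 0.30. The order was the same in 6 of 6 ways of computing the values. These include the way used in the report, and the mean over probes cannot differ for a single probe. The order also includes Y27632 above E8, the contrast on which CD55 was chosen.

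Relative to E8, CD55 was 5.66-fold higher on Mesoderm (log2 difference 2.50), 2.51-fold on Y27632 (1.33) and 1.86-fold on Nam (0.89, just short of the call). All 3 values rest on the same dim E8 measurement. Without the E8 array, Mesoderm was 3.05-fold above Nam and 2.25-fold above Y27632, and the log2 difference for Nam minus Y27632 was -0.44. The difference on Y27632, on which CD55 was chosen, ranked 4 of 10989 genes from the highest. On Nam CD55 ranked 130 of 11390 genes from the highest, and on Mesoderm 244 of 11649. Of the 1731 genes whose lower level lay within 0.5 of that of CD55 in Y27632 minus E8, 3 were called higher, CD55 included, and 4 were called lower. In Mesoderm minus E8, 228 of 1843 such genes (12.4%) were called higher. CD55 was chosen on Y27632 minus E8, so nothing is read from its rank or from the counts in that contrast. Its ranks on Nam and Mesoderm reuse the E8 value of that contrast.

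The call on Y27632 depended on how the background was treated. The log2 difference of CD55 was 0.98 with an offset of 50 in place of 16, and 0.60 with no background correction, and it was not called in either. In the authors' normalized values it was 1.09. The call on Mesoderm held in 5 of 5 alternatives, with log2 differences between 1.36 and 2.56. Of these, the mean over probes could not differ, since CD55 has a single probe. All of them reuse the same dim E8 measurement.

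CD59 did not follow CD55. Its detected probe had a deposited signal of 241 on Nam, 207 on Y27632, 206 on Mesoderm and 257 on E8. The normalized log2 intensity was 7.16 on Nam, 6.56 on Y27632, 6.33 on Mesoderm and 6.91 on E8. It was lowest on Mesoderm, where CD55 was highest, but only 0.23 below Y27632, within the between-probe SD of 0.44 for that pair. The log2 difference from E8 was 0.25 on Nam, -0.35 on Y27632 and -0.58 on Mesoderm, none of them called. The value on Nam was within the between-probe SD of its comparison and the other 2 were above theirs. With no background correction those 2 were -0.17 on Y27632 and -0.26 on Mesoderm, both within that SD. That SD is pooled over genes of all levels, and CD59 too is dim.

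**Figure D2:**
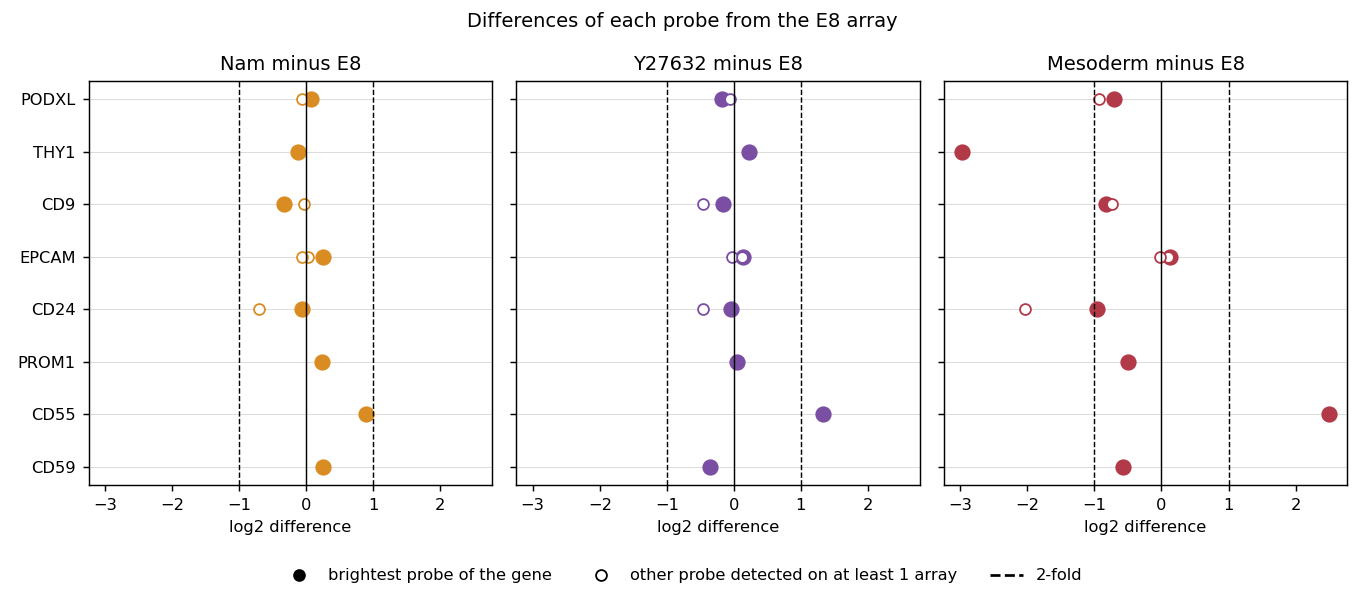
Log2 difference of each detected probe (horizontal axis) on the Nam, Y27632 and Mesoderm arrays from the E8 array, 1 row per gene. Filled points are the brightest probe, open points other probes, and dashed lines mark 2-fold. On Mesoderm 6 of the 8 brightest probes lie below 0, THY1 at -2.97 and CD55 at 2.50 lie past 2-fold, and the second CD24 probe lies at -2.04.

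Direct comparison of Nam with Y27632 called 0 of the 8 genes, where 1.71% of 11173 genes were called. The largest log2 difference for Nam minus Y27632 was 0.60, in CD59, followed by -0.44 in CD55 and -0.34 in THY1. The other 5 lay within the between-probe SD of 0.30. The median of the 8 genes was 0.15 on Nam relative to E8 (0.04 over all genes compared), 0.00 on Y27632 (0.01 over all genes) and -0.65 on Mesoderm (-0.02 over all genes). On Mesoderm 6 of the 8 genes were at their lowest over the 4 arrays, and CD55 and EPCAM were the exceptions. CD59 was lower there than on Y27632 by only 0.23, within the between-probe SD of 0.44 for that pair. The share of all genes lowest on Mesoderm was not computed, so nothing is read from this count.

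**Figure D3:**
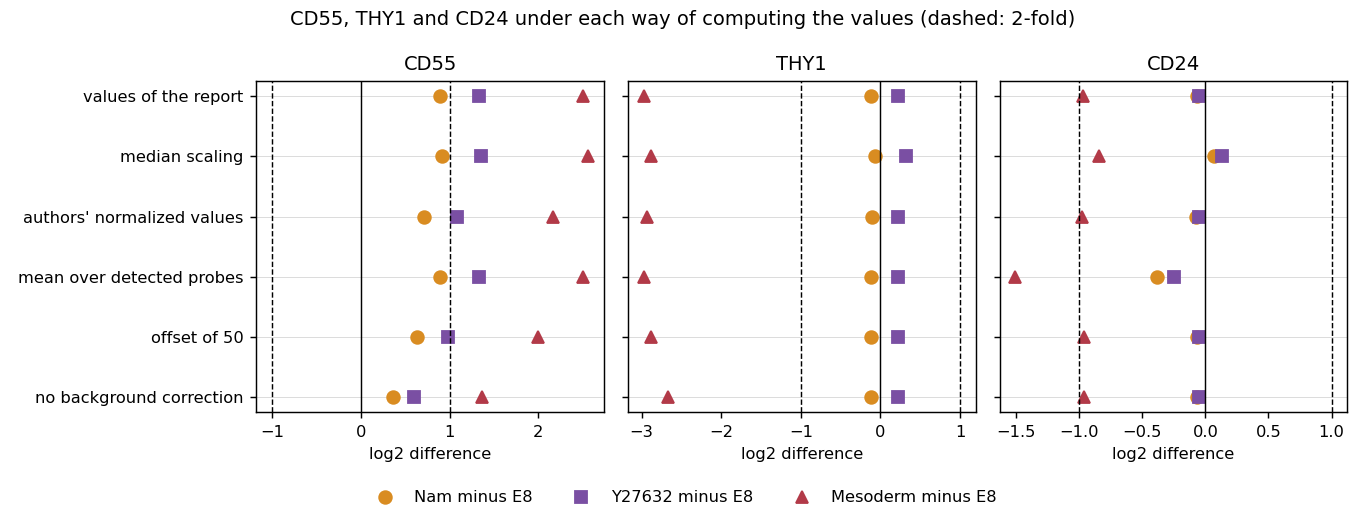
Log2 difference from E8 (horizontal axis) of CD55, THY1 and CD24 on Nam, Y27632 and Mesoderm under the values of the report and 5 alternatives (rows), with 2-fold as dashed lines. CD55 on Y27632 falls short of 2-fold in the lowest 2 rows, at 0.98 and 0.60. THY1 on Mesoderm stays between -2.97 and -2.67, and CD24 on Mesoderm passes 2-fold with the mean over probes, at -1.50.

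Other surface proteins used as markers of human pluripotent stem cells moved in both directions on Mesoderm. Of 19 such genes compared, 4 were called higher and 6 lower relative to E8, with a median log2 difference of -0.31. Over all genes 10.6% were called higher and 11.4% lower in this comparison, and L1CAM entered it only through its detection on Mesoderm. PTPRZ1, a receptor phosphatase, had a log2 difference of -3.25. ITGA6, a laminin receptor subunit, had -2.30. EPHA1, an ephrin receptor, had -2.17, and ALPL, the alkaline phosphatase used to stain pluripotent colonies, had -2.06. ADGRG2 and KIT were the other genes called lower. The 4 called higher were chosen for mention after their values were seen. The adhesion molecule NCAM1 had 1.67, BST2 1.26 and CD99 1.06, and L1CAM was at least 1.44-fold higher. On Nam 1 of 18 was called, where 2.26% of all genes compared were called. It was BST2, an interferon-induced membrane protein, with a log2 difference of -1.04. On Y27632 0 of 18 were called, where 0.41% of all genes compared were, with differences between -0.24 and 0.43.

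Of 13 tetraspanins other than CD9 compared on Mesoderm, TSPAN12 alone was called relative to E8, with a log2 difference of 2.88 (7.35-fold higher). Over all genes compared there, 22% were called. TSPAN12 is a co-receptor in Norrin signalling through the Wnt receptor FZD4. Its 2 probes differed by an SD of 0.06. The median of these tetraspanins was 0.31 on Mesoderm, where CD9 was at -0.83. On Nam 0 of 14 and on Y27632 0 of 13 were called, where the shares over all genes were 2.26% and 0.41%. Among relatives, partners and proteases of PODXL, CD9, EPCAM and PROM1, 3 of 11 were called lower on Mesoderm. Over all genes compared, 11.4% were called lower. PODXL2, the endoglycan relative of PODXL, was at least 2.70-fold lower and entered only through its detection on E8. PSEN2, a catalytic subunit of gamma-secretase, which cleaves EPCAM, had -1.98 and CLDN7, a claudin that binds EPCAM, had -1.02. None of 10 compared was called on Nam or on Y27632, where 2.26% and 0.41% of all genes compared were called.

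The fluid-phase and other complement regulators were mostly below detection. Of 11 listed besides CD46, CD55 and CD59, 9 had a probe and 3 were detected on any array. SERPING1, the inhibitor of the first complement enzymes, was detected on all 4 arrays, with log2 differences from E8 of -0.52 on Nam, -0.18 on Y27632 and -0.08 on Mesoderm. CSMD1, a membrane inhibitor of complement that was not detected on E8, was at least 1.64-fold higher on Mesoderm. Of 26 complement proteins and receptors with a probe, 6 were detected on any array. In Mesoderm minus E8, 5 were compared and 3 had a normalized value at least 2-fold higher. Those 3 were detected on Mesoderm and not on E8, so they entered only through the array where they are high, and nothing is read from their count. C5, whose cleavage starts the membrane attack complex, was at least 5.73-fold higher. C7, a subunit of that complex, was at least 1.48-fold higher, and C1QA, a chain of the C1q recognition molecule, at least 1.34-fold. On Nam 0 of 3 and on Y27632 0 of 2 were called, where the shares over all genes were 2.26% and 0.41%.

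The enzymes that build and attach the GPI anchor of THY1, CD24, CD55 and CD59 were nearly all detected, with 28 or 29 of 30 detected on each array. On Mesoderm 0 of 29 were called higher and 2 lower relative to E8, and the median log2 difference was 0.13. Over all genes compared, 10.6% were called higher and 11.4% lower. PIGW, an acyltransferase of the pathway, was at least 6.24-fold lower and entered only through its detection on E8. PIGM, the first mannosyltransferase, had -1.19. On Nam and on Y27632 0 of 29 were called, where the shares over all genes were 2.26% and 0.41%.

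**Figure D4:**
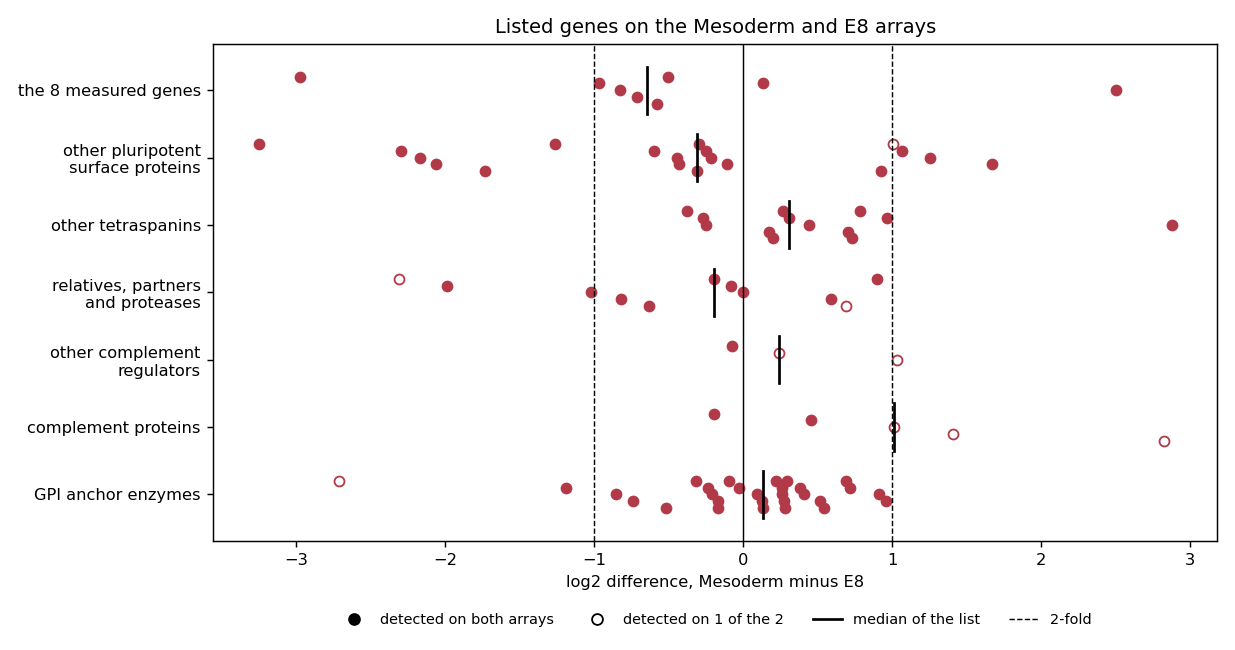
Log2 difference of Mesoderm minus E8 (horizontal axis) for each compared gene of 7 lists (rows), with the median of each list as a bar and 2-fold as dashed lines. Open points were detected on 1 of the 2 arrays. The 8 genes of the report have a median of -0.65, the other pluripotent surface proteins -0.31, the tetraspanins 0.31 and the GPI anchor enzymes 0.13.

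Markers of several lineages moved on the Mesoderm array together with THY1 and CD55. All 7 mesoderm markers were called higher relative to E8, and their summed signal was 16761 on Mesoderm against 1236 on E8. HAND1 was at least 123.0-fold higher, APLNR at least 86.2-fold, ISL1 at least 69.9-fold and PDGFRA at least 20.1-fold. Of 5 fibroblast markers, 4 were detected on Mesoderm and called higher, with a summed signal of 5538 on Mesoderm against 1582 on E8. All 3 endoderm markers were called higher, with a summed signal of 2567 on Mesoderm against 422 on E8, and so were the 4 detected of 6 trophoblast and amnion markers (5856 on Mesoderm against 554 on E8). Over all genes compared, 10.6% were called higher. On E8 only 1 mesoderm marker, 2 fibroblast, 0 endoderm and 1 of the trophoblast and amnion markers were detected. The others entered only through the Mesoderm array, where they are high, so nothing is read from these counts. Of 2 blood markers with a probe, HBE1 was detected. The 2 endothelial markers PECAM1 and CDH5, and the trophoblast markers CGA and KRT7, were not detected on any array. The pluripotency markers had a summed signal of 13665 on Mesoderm against 51613 on E8. The part of these cell types in the differences of THY1 and CD55 was not tested.

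The summed signal of the fibroblast markers was 966 on Nam and 1408 on Y27632 against 1582 on E8, and that of the mesoderm markers 1157 on Nam and 1156 on Y27632 against 1236 on E8. IGFBP3, listed with trophoblast and amnion, was higher on Nam relative to E8, with a log2 difference of 1.08. The mean over its 2 probes was 0.86, short of 2-fold, with an SD of 0.30. Its normalized log2 intensity on E8 was 5.64, near the lowest detected value of that array, 5.59. The brightest probe of the early neural marker PAX6 was detected on Y27632 and on no other array. It was at least 1.19-fold higher there relative to E8, and Nam was at least 1.23-fold lower than Y27632, where its normalized log2 difference of -1.09 passed 2-fold. Its 2 probes disagreed, with a mean log2 difference of 0.05 and an SD of 0.76 on Y27632 relative to E8. The other neural marker, SOX1, was not detected. The deposited signal of the brightest PAX6 probe was 133.0 on Nam and 173.0 on Y27632 against 157.8 on E8. The lowest detected signals of these arrays were 156.1 on Nam, 172.2 on Y27632 and 170.6 on E8, so these values are near or below the limit. The part of IGFBP3 and PAX6 in the values of CD55 on Nam and Y27632 was not tested.

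The genes nearest in pattern to each called gene were found over the 4 arrays by the Euclidean distance between mean-centred log2 values, among 9483 other genes detected on all 4. THY1 had close neighbours: PGM2L1 (distance 0.19), SFRP2 (0.20), a secreted modulator of Wnt signalling, and CKMT1B (0.21), a mitochondrial creatine kinase. Their log2 differences for Mesoderm minus E8 were -2.82 for PGM2L1, -3.04 for SFRP2 and -3.18 for CKMT1B, against -2.97 for THY1. CD55 had none as close. NEDD9, a scaffold of focal adhesions, lay at a distance of 0.63, and RIPOR1 and SNORD3D both at 0.65. CKMT1B and SNORD3D each have near-identical copies, so their probes may read more than 1 gene. NEDD9 had a log2 difference of 0.46 for Y27632 minus E8 and 2.17 for Mesoderm minus E8, against 1.33 and 2.50 for CD55. With 4 arrays, such a likeness is mainly a likeness in the Mesoderm value.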

How the data were processed

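Total RNA was amplified and labelled as cRNA (TargetAmp-Nano kit) and hybridised to Illumina BeadChips, per the labels' protocols. For each of 47296 probes, the authors deposited an intensity per array and, per the file headers, its detection p-value. Their second deposited table holds normalized log2 values, and how they were made is not given in the sources used here. In the series matrix 0 cells differed from it. Its scale was taken as log2 from the range of its values, each column had a median of 5.58, and genes were not centred.

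Intensities were processed with limma 3.58.1 in R 4.3.3 (neqc: normexp background from the detection p-values, offset 16, quantile normalization, log2). The offset makes differences of dim genes too small. The platform annotation gave 1 symbol to 30105 probes, several to 8 and none to 17183. A gene took the probe with the highest mean among its probes detected on at least 1 array. Where the dimmer array did not detect a probe, a fold is written as at least N-fold, against the higher of its value and that array's lowest detected value. Pooled probe SDs used all genes with several probes detected on at least 1 array, and rankings used all genes of a comparison. The genes nearest in pattern were sought among those detected on all 4 arrays. The procedure was tested on simulated data.

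The 9 genes, the lists and the calls by size were chosen with earlier results of these data known. From each list the text names up to 4 called genes with the largest differences, except that all called genes of the pluripotent surface list are named and that IGFBP3 and PAX6 stand for Nam and Y27632, and for each called gene of the 9 its 3 nearest genes. The alternatives were no background correction, offset 50, median scaling over probes detected on all 4 arrays, the authors' values, the mean over probes, a detection p of 0.05, detection on both arrays and no detection filter. Promoter sequences are from RefSeq. The number of arrays limits the precision.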

Additional observations from a re-analysis of the deposited data

How the results depend on the processing

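No replicate could be left out, since each condition has 1 array. No paired analysis was possible because no test was made. Of 160 recomputed differences of the 8 genes (5 alternatives), 151 moved by less than the between-probe SD, 9 moved by more and 0 past 2-fold changed sign. Of the differences from E8 that moved by more, CD55 had 1 on Nam, 2 on Y27632 and 2 on Mesoderm. Genes with a single detected probe (THY1, PROM1, CD55 and CD59) could not move with the mean over probes. The count of the 8 genes called in Y27632 minus E8 was 0 with no background correction and 0 with offset 50, since CD55 fell short. With the mean over probes CD24 joined THY1 and CD55 in Mesoderm minus E8, and CD24 in Nam minus E8 was -0.38. Over all genes, no background correction gave 34 calls on Nam, 1 on Y27632 and 1083 on Mesoderm relative to E8, and 17 between Nam and Y27632 (257, 45, 2565 and 191 in the report). Offset 50 gave 71 on Nam, 1 on Y27632, and 36 between Nam and Y27632. The authors' values gave 142 on Nam, 15 on Y27632, and 90 between Nam and Y27632. Detection on both arrays gave 131 on Nam, 7 on Y27632, 1622 on Mesoderm, and 60 between Nam and Y27632. Without background correction the background stays in both signals, and ratios of dim probes are smaller. CD55, for example, had deposited signals of 262 on Y27632 and 187 on E8. Which treatment of the background lies nearer the true ratio was not tested.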

Other observations

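The 10 genes nearest to CD55 in the RefSeq gene order (4 before it and 6 after it) include several complement genes, CD46 among them. C4BPB, C4BPA, CR1 and CR1L were not detected on any array. CR2, a complement receptor of B cells, was detected on 3 arrays, with a normalized log2 intensity of 6.42 on Nam, 6.13 on Y27632, 4.64 (not detected) on Mesoderm and 5.95 on E8. PFKFB2, a regulator of glycolysis, had 6.77 on Nam, 6.41 on Y27632, 6.53 on Mesoderm and 7.14 on E8. YOD1, a deubiquitinase, had 8.72 on Nam, 8.55 on Y27632, 9.03 on Mesoderm and 8.63 on E8. CD34, a relative of PODXL that marks blood and endothelial progenitors, and PLXNA2, a semaphorin receptor, were each detected on 1 array, at 5.81 and 6.62 on Mesoderm.

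Of the 10 genes around CD59 in the same order, 7 were detected on all 4 arrays: CSTF3, FBXO3, LMO2, CAPRIN1, NAT10, ABTB2 and CAT. KIAA1549L was detected on 2 arrays, and HIPK3 and C11orf91 on none. LMO2, a transcriptional cofactor of blood and endothelial development, had a normalized log2 intensity of 6.68 on Nam, 6.01 on Y27632, 9.45 on Mesoderm and 6.08 on E8. NAT10, an RNA acetyltransferase, had 10.68 on Nam, 10.58 on Y27632, 9.49 on Mesoderm and 10.55 on E8. LMO2 and NAT10 are given with values because they differed most between Mesoderm and E8, a choice made after their values were seen.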
